A study of Mus musculus with 10 samples.

Results

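SHP099 and SX682 were given alone and together to tumour-bearing mice, and the results below concern where the combination departed from what the single drugs would give if their effects multiplied. All 12 mice profiled by single-cell RNA sequencing were used, out of 18 samples in the series, the other 6 being bulk libraries not used here. KP cells, mouse lung adenocarcinoma cells, had been injected intravenously into syngeneic mice, where they formed lung tumours. Every mouse carried these tumours and was treated for 11 days. Combo mice received SHP099 and SX682, SHP099 mice SHP099 alone, SX682 mice SX682 alone, and Vehicle mice the vehicle, with 3 mice in each treatment. Live cells of the dissociated nodules were enriched with magnetic beads, tagged by mouse with hashtag oligonucleotides, and pooled within a treatment for the 10x V(D)J kit. Each treatment was thus 1 pool, so that an effect of a pool and an effect of its treatment cannot be told apart. The labels give the hashtag numbers no meaning beyond naming the mice.

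SHP2, the phosphatase encoded by Ptpn11, passes signals from receptor tyrosine kinases on to Ras and ERK, and SHP099 is an allosteric inhibitor that holds it in its closed form. CXCR1 and CXCR2 are chemokine receptors that draw neutrophils to tissues along gradients of Cxcl1, Cxcl2, Cxcl5 and related ligands, and SX682 inhibits both receptors. Neutrophils recruited through this axis are a large part of the immune infiltrate of many lung tumours, and cytotoxic T cells are the other population whose entry such drugs are meant to change. The design text names the gene expression of KP tumour cells and the accompanying changes of the microenvironment as the subject of the study.

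The deposited matrix held 44986 cells, 12594 of Combo, 9162 of SHP099, 10777 of SX682 and 12453 of Vehicle mice, sorted by the authors into 33 clusters. The authors listed 9540 cells as neutrophils and 6570 as T cells in tables of their own, and their clusters 21 and 23, the tumour cells, 4093 cells. Of these tumour cells 926 were from Combo, 219 from SHP099, 722 from SX682 and 2226 from Vehicle mice. Neutrophil markers summed to between 48860 and 100100 CPM (counts scaled to a library total of 1e+06 UMIs) in the neutrophils of each mouse, T cell markers to between 3227 and 4697 CPM in the T cells, and tumour epithelial markers to between 5922 and 11300 CPM in the tumour cells. The median number of unique molecular identifiers (UMIs) per cell ranged from 1532 to 1632.5 in Combo, from 1440 to 1612 in SHP099, from 2501.5 to 2731.5 in SX682 and from 2824 to 4838 in Vehicle mice. SX682 mouse 3 stood apart from the other 2 mice of its pool, with 6.26% neutrophils and 29.6% T cells. Of 43973 distinct barcodes, 1009 occurred in more than 1 pool and 0 in more than 1 mouse of a pool.

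The interaction was the log2 value of Combo minus SHP099 minus SX682 plus Vehicle. At 0, the Combo level equals the Vehicle level multiplied by both single-drug ratios, and above 0 the Combo level lies above that product. UMI sums per mouse and class, and cell counts per mouse and cluster, were tested with edgeR's quasi-likelihood F test, two-sided. A feature was called at a Benjamini-Hochberg adjusted p below 0.05 over all features of the table. For shares, an exact permutation test over all 924 splits of the 12 mice is given beside it, whose null is no effect of any treatment and whose smallest possible p is 0.0022. Nothing in the labels says whether litters or batches were shared, so the p-values measure the spread between these mice.

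Of the shares of the 3 classes, that of tumour cells alone departed from the product of the single drugs past the threshold. Tumour cells made up 6.35, 7.73 and 8.11% of all cells in the Combo mice, 2.06, 2.72 and 2.49% in the SHP099 mice, 10.3, 4.77 and 4.69% in the SX682 mice and 17.6, 15.3 and 22.04% in the Vehicle mice. The Combo mice lay above all SHP099 mice and below all Vehicle mice, and their values fell within the span of the SX682 mice. Means were 7.40 ± 0.929% in Combo, 2.42 ± 0.337% in SHP099, 6.59 ± 3.23% in SX682 and 18.3 ± 3.44% in Vehicle mice (SD, n = 3 each). The product of the single-drug ratios would have put the Combo mean at 0.874%. The interaction was 3.08 ± 0.55 (SE; adjusted p = 0.00178 by edgeR; exact permutation p = 0.0108). Both single drugs lowered the share relative to Vehicle, by log2 changes of -2.92 for SHP099 and -1.47 for SX682, of which the SHP099 change was called and the SX682 change was not (adjusted p = 0.0567 by edgeR). The combination stood at -1.31 against Vehicle. Combo exceeded SHP099 alone by 1.61 and SX682 alone by 0.16 on the log2 scale, and the first of these differences was called (adjusted p = 0.0316 by edgeR) while the second was not (0.803).

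**Figure D1:**
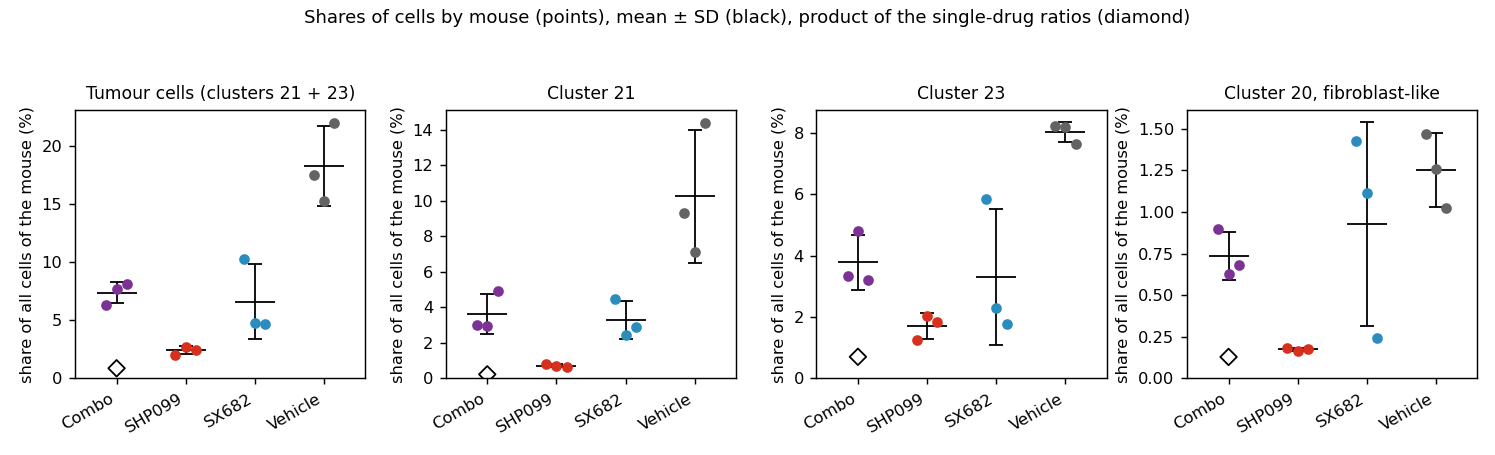
Share of all cells of each mouse (percent, y axis) for the tumour cells, clusters 21 and 23 and the fibroblast-like cluster 20, by treatment; points are mice, black bars the mean ± SD of 3 mice, and the diamond the product of the single-drug ratios. The Combo mice sit above the diamond in every panel, with a tumour cell mean of 7.40% against a product of 0.874%.

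The same held without any single mouse, with interactions of 2.89 to 3.56, and when neutrophils and T cells were left out of the total, at 2.59. In percentage points the interaction was 16.7, but its sign could not have differed. The single-drug falls from the Vehicle mean of 18.3% to 2.42% under SHP099 and 6.59% under SX682 together exceed that mean. Their sum would put the Combo share at an impossible negative value, so this scale gives no separate evidence on the direction.

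Among the 33 clusters, 3 were called (9.09%), all above 0, and 2 of them were the tumour clusters themselves. Cluster 21 held 3.02, 2.93 and 4.91% of cells in Combo, 0.818, 0.681 and 0.655% in SHP099, 4.49, 2.47 and 2.90% in SX682 and 9.31, 7.10 and 14.4% in Vehicle mice. No SHP099 mouse reached 1% of cells in this cluster, and the Combo and SX682 mice overlapped. Its interaction was 3.96 ± 0.59 (SE; adjusted p = 0.000207 by edgeR; exact permutation p = 0.0108), with a product of 0.230% against a Combo mean of 3.62%. It was called without each mouse in turn. Cluster 23 held 3.33, 4.80 and 3.20% in Combo, 1.24, 2.04 and 1.83% in SHP099, 5.83, 2.30 and 1.78% in SX682 and 8.24, 8.18 and 7.64% in Vehicle mice. Here SX682 mouse 1 lay above every Combo mouse and the other SX682 mice lay among or near the SHP099 mice. The interaction of cluster 23 was 2.42 ± 0.63 (SE; adjusted p = 0.0256 by edgeR; exact permutation p = 0.0152). It missed the threshold when mouse 1 (2.24) or 3 (2.48) of the SHP099 pool, or 1 (2.40) or 2 (2.41) of the Vehicle pool, was left out. By the exact test 4 clusters had an unadjusted p under 0.05 and 0 an adjusted one.

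The third called cluster was stromal. Cluster 20 was fibroblast-like, led by the collagen genes Col1a1, Col1a2 and Col3a1, Mgp and the proteoglycan gene Dcn. It held 0.896, 0.627 and 0.682% of cells in Combo, 0.185, 0.162 and 0.175% in SHP099, 1.43, 1.11 and 0.245% in SX682 and 1.47, 1.26 and 1.03% in Vehicle mice. The SHP099 mice were lower than all other mice, at 4 to 7 cells each, and SX682 mouse 3 was close to them. The interaction was 2.48 ± 0.74 (SE; adjusted p = 0.0488 by edgeR; exact permutation p = 0.0541). This call was lost without Combo mouse 1 or 3, or any 1 of the SHP099 or Vehicle mice, with interactions of 2.31 to 2.60. It was also lost with the tumour clusters left out of the total, at 2.72. The endothelial-like cluster 11, led by Ccl21a, Plvap, Mmrn1 and Lyve1, had 0.755, 0.516 and 1.09% in Combo, 0.211, 0.195 and 0.306% in SHP099, 1.37, 0.218 and 0.175% in SX682 and 2.22, 1.02 and 1.10% in Vehicle mice. Its interaction of 3.02 ± 0.95 missed the threshold (adjusted p = 0.0504 by edgeR; exact permutation p = 0.0152), and it passed without Combo mouse 2 (3.25) and without SX682 mouse 1 (4.59). Cluster 11 also passed with TMM scaling of cell counts (3.22, adjusted p = 0.0381 by edgeR), with the replicate block (3.24, adjusted p = 0.025 by edgeR) and by limma on logit shares (3.44, adjusted p = 0.0229). The largest value below 0 with an unadjusted p under 0.05 was that of cluster 27, an unnamed cluster led by the nuclear RNAs Kcnq1ot1, Malat1 and Neat1, at -1.76 ± 0.63 (adjusted p = 0.0901 by edgeR).

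Neutrophils, the cells that SX682 is directed at, showed no departure that passed the test. They were 23.1, 25.3 and 31.0% of cells in Combo, 28.3, 36.1 and 27.8% in SHP099, 18.1, 20.6 and 6.26% in SX682 and 16.1, 13.1 and 9.88% in Vehicle mice. Combo and SHP099 mice overlapped, and all of them lay above every SX682 and Vehicle mouse. The interaction was -0.42 ± 0.58 (SE; adjusted p = 0.622 by edgeR; exact permutation p = 0.727), and the product of ratios was 35.3% against a Combo mean of 26.5%. Of the 6 neutrophil clusters of the authors' neutrophil table, 0 were called (0%), and 0 had an unadjusted p under 0.05 by edgeR or by the exact test. The furthest from 0 was N3, at -0.75 ± 0.44 with an unadjusted p of 0.119 by edgeR, and at -0.23 without SX682 mouse 2. N3 held 31.0, 24.1 and 35.3% of neutrophils in Combo, 25.5, 23.9 and 21.04% in SHP099, 11.4, 28.6 and 15.1% in SX682 and 7.48, 9.13 and 9.62% in Vehicle mice. Every treated mouse was thus above every Vehicle mouse, and the 3 treatments overlapped.

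T cells were 19.4, 14.0 and 13.9% of cells in Combo, 18.8, 20.9 and 25.0% in SHP099, 10.3, 9.78 and 29.6% in SX682 and 7.91, 8.88 and 7.67% in Vehicle mice. All treated mice were above all Vehicle mice, and SX682 mouse 3 was above every other mouse. The Combo mean of 15.8% lay below the product of 43.8%, with an interaction of -1.47 ± 0.60 that missed the threshold after adjustment (adjusted p = 0.149 by edgeR; exact permutation p = 0.102). Without SX682 mouse 3 it was -0.75.

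Within the T cells, 1 of 9 clusters was called (11.1%), and its share was highest in the combination. T2 was led by Gzma, Ccl5, Cx3cr1, Gzmk and Klrg1, genes of granule proteases, a chemokine and surface receptors carried by circulating effector cells. It had 53.7 times as many Cd8a and Cd8b1 UMIs as Cd4 UMIs. Its Cd3e level was 1167 CPM, and that of Ncr1, a receptor of natural killer cells, was 7.82 CPM. T2 made up 17.8, 5.79 and 10.3% of T cells in Combo, 3.94, 1.86 and 2.97% in SHP099, 2.57, 4.21 and 1.89% in SX682 and 3.16, 6.25 and 2.97% in Vehicle mice. Combo mice 1 and 3 were above all other mice, while Combo mouse 2 was below Vehicle mouse 2. Mean shares were 11.3 ± 6.05% in Combo, 2.92 ± 1.04% in SHP099, 2.89 ± 1.19% in SX682 and 4.13 ± 1.84% in Vehicle mice (SD, n = 3 each). The interaction was 2.50 ± 0.68 (SE; adjusted p = 0.0215 by edgeR; exact permutation p = 0.0216). SHP099 alone stood at -0.49 and SX682 alone at -0.56 against Vehicle on the log2 scale, neither called. Combo exceeded SHP099 by 1.94 (adjusted p = 0.00395 by edgeR) and SX682 by 2.01 (adjusted p = 0.00581 by edgeR). The interaction call was lost without Combo mouse 1 (1.98), SHP099 mouse 2 (2.26), SHP099 mouse 3 (2.50), SX682 mouse 3 (2.22) or Vehicle mouse 2 (2.08), and as a share of all cells (1.35). As a share of the CD8 T cell clusters it held, at 2.30. T5, another CD8 cluster, held 7.79, 9.74 and 7.09% of T cells in Combo, 2.39, 4.19 and 3.32% in SHP099, 4.37, 5.94 and 3.42% in SX682 and 2.57, 2.96 and 3.96% in Vehicle mice. The Combo mice were above all others, yet the interaction of 0.77 ± 0.48 was not called (adjusted p = 0.404 by edgeR).

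**Figure D2:**
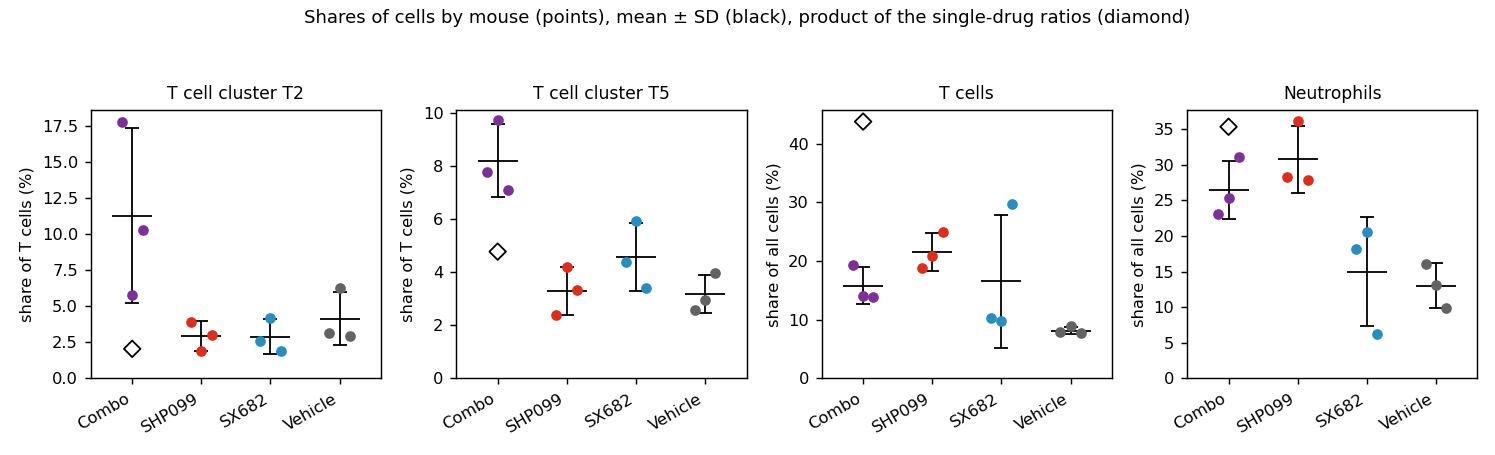
Shares by mouse (percent, y axis) of T cell clusters T2 and T5 among T cells and of T cells and neutrophils among all cells, by treatment; points are mice, black bars the mean ± SD of 3 mice, and the diamond the product of the single-drug ratios. T2 averaged 11.3% in Combo mice and at most 4.13% in the other treatments, while SX682 mouse 3 stands apart in the T cell and neutrophil panels.

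Gene levels were tested in the same way within each class. In neutrophils 131 of 7477 genes tested were called (1.75%), 110 of them above 0 (1.47%) and 21 below 0 (0.281%). In T cells 102 of 8330 were called (1.22%), 64 above 0 (0.768%) and 38 below 0 (0.456%). In tumour cells 53 of 10993 were called (0.482%), 25 above 0 (0.227%) and 28 below 0 (0.255%). With each mouse thinned to the smallest cell number of its class, 14, 27 and 2 genes were called. Median interactions over all genes were 0.00, 0.00 and -0.01 on the log2 scale in these classes. In 124 of the 131 neutrophil genes, 97 of the 102 T cell genes and 52 of the 53 tumour genes, the interaction was opposite in sign to both single-drug changes. In that pattern both drugs moved a gene the same way and the combination fell short of the product. The opposite pattern, with the combination beyond the product, had 0 genes in each class. Over all genes tested, the counts were 4629 short and 544 beyond in neutrophils, 5002 and 653 in T cells, and 6268 and 1052 in tumour cells. These signs are a description, because both single-drug changes and the interaction share the Vehicle mice. The 3 SHP099 mice lay apart from the other 9 mice in 57 of the neutrophil genes called (43.5%, against 4.92% of all tested), 45 of the T cell genes (44.1%, against 7.77%) and 33 of the tumour genes (62.3%, against 8.21%). The Combo mean lay between those of SHP099 and Vehicle in 110 of the neutrophil genes called (84.0%, against 47.3% of all tested), 78 of the T cell genes (76.5%, against 46.1%) and 36 of the tumour genes (67.9%, against 42.6%). These positions are a description as well, because the genes were called on an interaction of the same treatment levels. The comparison with all genes tested does not remove that selection.

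In neutrophils many of the genes called above 0 were far more abundant in other clusters. Of the 131 genes called, 72 had a neutrophil level under 5% of that in the cluster where they were highest, as did 366 of the 7477 tested. All 72 were above 0. Krt8, a keratin of epithelial cells (chromosome 15, 101996698 to 102004482, mm10), reached 1.67% of its level in tumour cluster 21. It had 89.0, 115 and 83.0 CPM in Combo, 21.3, 22.3 and 33.5 in SHP099, 72.2, 83.2 and 44.0 in SX682 and 209, 146 and 200.3 in Vehicle neutrophils. Its interaction was 3.31 ± 0.28 (SE; adjusted p = 1.27e-07 by edgeR). Every SHP099 mouse was below every other mouse, and every Vehicle mouse above. The keratin genes Krt18 (2.41) and Krt19 (3.33), the galectin genes Lgals4 (3.43) and Lgals2 (3.41), and Gsta4 (3.72), a glutathione transferase gene, gave interactions of the same kind. Each was at 1.22% to 2.50% of the level in a tumour cluster. The 6 tumour epithelial markers, of which 1 was at 0, summed in neutrophils to 205, 235 and 206 CPM in Combo, 54.3, 74.9 and 105 in SHP099, 194, 190.5 and 154 in SX682 and 409, 339 and 445 in Vehicle mice. These sums moved with the share of tumour cells, and their part in the keratin and galectin calls was not tested. Tested without the genes under 5%, 39 genes were called in neutrophils, 32 above and 7 below 0, all of them among the 131.

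Cxcl1, a CXCR2 ligand, was the 1 called of 10 genes tested in the CXCR2 list, against 1.75% of all neutrophil genes tested. Cxcl1 (chromosome 5, 90891241 to 90893115, mm10) had 52.2, 41.5 and 51.9 CPM in Combo, 31.3, 22.3 and 38.8 in SHP099, 25.1, 56.8 and 10.2 in SX682 and 107, 111 and 130.5 in Vehicle neutrophils. All treated mice were below all Vehicle mice, and the Combo mice were above the SHP099 mice and overlapped the SX682 mice. The product of ratios was 8.12 CPM, and the interaction was 2.27 ± 0.43 (SE; adjusted p = 0.00972 by edgeR). Its neutrophil level was 19.8% of that in the fibroblast-like cluster 20, where it was highest. The more abundant ligand gene Cxcl2 had 29500, 26380 and 20750 CPM in Combo, 23260, 20200 and 21650 in SHP099, 28240, 28350 and 22620 in SX682 and 32370, 26750 and 28060 in Vehicle neutrophils. All SHP099 mice were below all Vehicle mice, the Combo and SX682 mice overlapped both, and its interaction of 0.37 ± 0.16 was not called (adjusted p = 0.337 by edgeR). Neither was that of Cxcl3, at 0.75 ± 0.32 (adjusted p = 0.376).

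The receptors that SX682 inhibits were measured in the same cells. Cxcr2 had 223, 189 and 174 CPM in Combo, 226, 214 and 254 in SHP099, 225, 182 and 189.7 in SX682 and 258, 182 and 231 in Vehicle neutrophils. All 4 treatments overlapped, and the interaction was -0.07 ± 0.20 (adjusted p = 0.949 by edgeR). Cxcr1 had 20.7, 18.1 and 23.9 CPM in Combo, 11.2, 5.72 and 13.6 in SHP099, 4.18, 6.61 and 6.77 in SX682 and 18.7, 6.43 and 6.07 in Vehicle neutrophils. Combo mice were above all SHP099 and SX682 mice and overlapped the Vehicle mice. Its interaction of 2.20 ± 0.59 missed the threshold (adjusted p = 0.0527 by edgeR). It was 1.21 without Vehicle mouse 1, and it was called without SHP099 mouse 3 (2.39), Vehicle mouse 2 (2.46) or Vehicle mouse 3 (2.35). Ptpn11, which encodes the target of SHP099, had interactions of -0.33 ± 0.32 in neutrophils, 0.37 ± 0.31 in T cells and 0.24 ± 0.15 in tumour cells, none called. Siglecf, a marker of neutrophils resident in lung tumours, stood at -0.79 ± 0.23 (adjusted p = 0.105 by edgeR) and Vegfa, an angiogenic factor gene, at -0.81 ± 0.26 (adjusted p = 0.179 by edgeR).

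Of the 21 genes called below 0 in neutrophils, 0 were under the 5% level. Ppp1r3d, a glycogen-targeting subunit gene of protein phosphatase 1 (chromosome 2, 178411206 to 178414472, mm10), had 43.8, 57.0 and 33.5 CPM in Combo, 62.5, 57.8 and 70.2 in SHP099, 32.4, 55.5 and 54.2 in SX682 and 19.6, 20.9 and 15.2 in Vehicle neutrophils. Every treated mouse was above every Vehicle mouse, and the Combo mice were below the SHP099 mice. The Combo mean of 44.8 CPM compared with a product of 162 CPM, an interaction of -1.75 ± 0.34 (SE; adjusted p = 0.00411 by edgeR) that was called without each mouse in turn. Isca1, an iron-sulfur cluster assembly gene, had 110.5, 112 and 109 CPM in Combo, 141, 122 and 118 in SHP099, 146, 137 and 136 in SX682 and 95.2, 77.2 and 94.1 in Vehicle neutrophils. Its interaction was -0.87 ± 0.19 (adjusted p = 0.013 by edgeR), not called without SHP099 mouse 1 (-0.78), and it shares exon sequence with the predicted gene Gm49354, so its counts are uncertain. Ndst1, a heparan sulfate modifying enzyme gene, stood at -0.99 ± 0.23 (adjusted p = 0.0175 by edgeR) and was not called without SHP099 mouse 1 (-0.91), SX682 mouse 2 (-0.92) or Vehicle mouse 1 (-1.003). Ptpn6 encodes the phosphatase SHP1. It was the 1 called of 19 genes tested in the SHP2 pathway list, against 1.75% of all neutrophil genes tested. It had 188, 182 and 177 CPM in Combo, 214, 227 and 231 in SHP099, 159, 185 and 227 in SX682 and 148, 130.3 and 137 in Vehicle neutrophils. Its interaction of -0.70 ± 0.18 (adjusted p = 0.0448 by edgeR) was called in only 1 of the 12 tests without a mouse, that without SX682 mouse 1, with values of -0.82 to -0.61 over the 12.

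Ribosomal protein genes stood on the other side of 0 in neutrophils. All 55 tested had an interaction above 0, with a median of 0.33, and 5 were called. Over all neutrophil genes tested, 3759 of 7477 were above 0 and 1.47% were called above 0. Rpl35 had 564, 630.2 and 604 CPM in Combo, 466, 530.4 and 578 in SHP099, 252, 249.7 and 295 in SX682 and 391, 402 and 404 in Vehicle neutrophils. The SX682 mice were lower than all others and the Combo mice overlapped the SHP099 mice, with an interaction of 0.80 ± 0.16 (SE; adjusted p = 0.00415 by edgeR). In T cells 22 of the same 55 genes were above 0 (median -0.07) and in tumour cells 12 (median -0.10). Over all genes tested these counts were 4199 of 8330 and 5336 of 10993. These genes are also a measure of RNA content, and the depth per cell in neutrophils ran from 894 to 1064 UMIs in Combo, 1146 to 1195 in SHP099, 1133.5 to 1282 in SX682 and 929.5 to 1157 in Vehicle mice. Its part in the result was not tested. The granule and youth list had 1 of 21 called above 0, S100a11 at 0.67 ± 0.16, lost without Combo mouse 3 (0.65), SHP099 mouse 2 (0.62), SX682 mouse 2 (0.58) or Vehicle mouse 1 (0.52). The tumour neutrophil list had 0 of 20 called, 10 of them above 0.

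**Figure D3:**
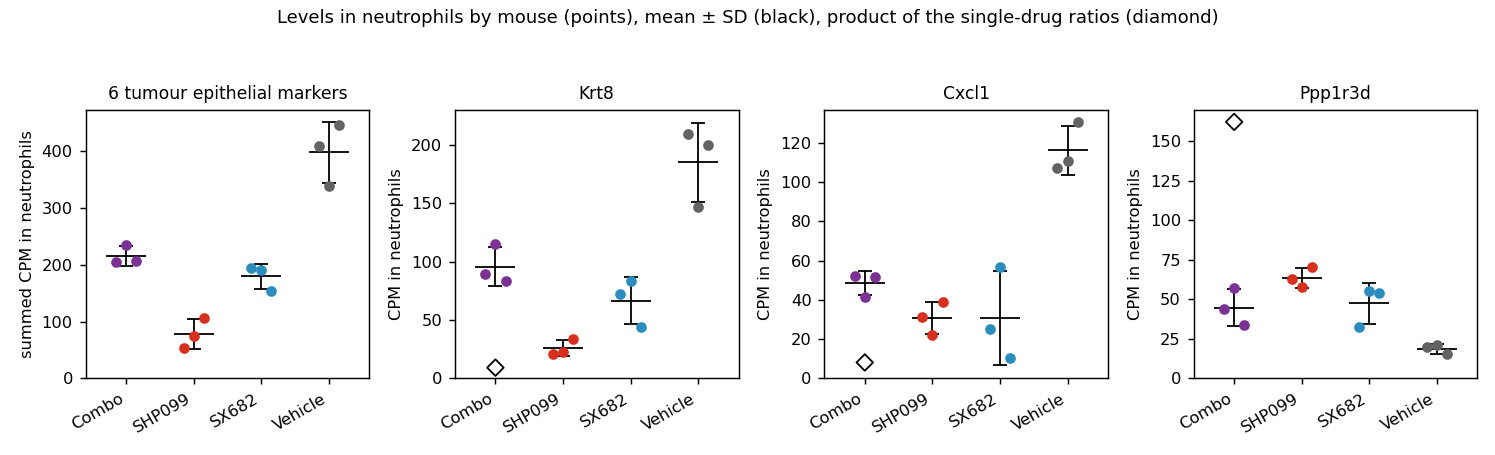
Levels in neutrophils by mouse (CPM, y axis) of the summed tumour epithelial markers, Krt8, Cxcl1 and Ppp1r3d; points are mice, black bars the mean ± SD of 3 mice, and the diamond, drawn for the genes alone, the product of the single-drug ratios. Combo means lie above the product for Krt8 and Cxcl1 and below it for Ppp1r3d, at 44.8 against 162 CPM.

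In T cells, 36 of the 102 genes called were under the 5% level, 35 of them above 0, against 339 of the 8330 tested. Among them was Cebpb, a transcription factor gene most abundant in cluster 32, with T cells at 0.948% of that level. Cebpb had 122, 117 and 145 CPM in Combo, 43.7, 44.8 and 45.9 in SHP099, 74.8, 86.3 and 50.2 in SX682 and 103, 90.9 and 115 in Vehicle T cells, an interaction of 2.08 ± 0.24 (SE; adjusted p = 1.06e-06 by edgeR). Apoe (2.02), a macrophage lipoprotein gene, and Ier3 (3.06), an immediate early gene, were of the same kind. So were the MHC class II genes H2-Ab1 and H2-Eb1, the 2 called of 8 tested in that list, at 1.44 and 1.18. Over all T cell genes tested, 1.22% were called. H2-Eb1 was called in only 5 of the 12 tests without a mouse, with values of 1.03 to 1.44. The 7 macrophage markers summed in T cells to 87.8, 69.5 and 72.7 CPM in Combo, 34.9, 39.6 and 37.8 in SHP099, 92.95, 144 and 135 in SX682 and 225, 220.2 and 242 in Vehicle mice, with 0 of them at 0. Neutrophil markers there summed to 169, 219 and 445 CPM in Combo, 79.4, 52.8 and 295.5 in SHP099, 26.6, 70.3 and 26.2 in SX682 and 177, 112 and 98.1 in Vehicle mice. The part of RNA from such cells in these calls was not tested. Tested without the genes under 5%, 54 genes were called in T cells, 25 above and 29 below 0.

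Among the T cell genes above the 5% level, 5 that were called without each mouse in turn are described. Akna, an AT-hook protein gene (chromosome 4, 63367125 to 63403354, mm10), had 110.3, 109 and 108 CPM in Combo, 142, 165 and 172 in SHP099, 146, 119 and 128 in SX682 and 96.6, 77.4 and 81.2 in Vehicle T cells. The Combo mice were below all mice given 1 drug and above all Vehicle mice. The product was 246 CPM, and the interaction -1.14 ± 0.18 (SE; adjusted p = 0.000569 by edgeR). Cirbp, a cold-inducible RNA-binding protein gene (chromosome 10, 80165985 to 80172786, mm10), went the other way. It had 64.7, 75.2 and 92.98 CPM in Combo, 82.0, 56.8 and 55.4 in SHP099, 109.8, 99.9 and 80.8 in SX682 and 223, 202 and 169.6 in Vehicle T cells. All treated mice were below all Vehicle mice, and the mice of the 3 treatments overlapped. The interaction of Cirbp was 1.31 ± 0.23 (SE; adjusted p = 0.00274 by edgeR). Setd1b, a histone H3 lysine methyltransferase gene, had 42.2, 36.2 and 50.7 CPM in Combo, 64.3, 56.8 and 65.8 in SHP099, 63.6, 60.9 and 54.0 in SX682 and 37.0, 33.6 and 35.8 in Vehicle T cells, and the Combo mice were again below all mice given 1 drug (interaction -1.28 ± 0.25, SE; adjusted p = 0.00736 by edgeR). The sialyltransferase gene St6gal1 had 23.8, 23.9 and 29.6 CPM in Combo, 50.5, 45.5 and 40.7 in SHP099, 47.4, 38.1 and 42.1 in SX682 and 33.9, 32.0 and 16.7 in Vehicle T cells. The Combo mice thus lay within the Vehicle range while the mice of each single drug lay above it (interaction -1.38 ± 0.30, SE; adjusted p = 0.0132 by edgeR). Ndufb4, a complex I subunit gene, was the 1 called of 59 oxidative phosphorylation genes, against 1.22% of all T cell genes tested. Its interaction was 0.77 ± 0.16 (adjusted p = 0.0101 by edgeR). Of the 59 genes of that list, 50 were above 0 (median 0.27), against 4199 of all 8330 T cell genes tested (median 0.00). Akna, Cirbp, Setd1b, St6gal1 and Ndufb4 were called without each mouse in turn. In the CD8 clusters alone Akna was at -0.93, Cirbp at 1.20, Setd1b at -1.12, St6gal1 at -0.96 and Ndufb4 at 0.63, each in the same direction and none called.

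Lists of T cell states gave 0 calls. With 1.22% of all T cell genes tested called, 0 calls in lists this short do not show an absence of departure. Of 25 cytotoxic effector genes tested 0 were called, with a median interaction of 0.61 and 19 above 0, against 4199 of all 8330 genes tested. Ccl5, a chemokine gene that also led cluster T2, had 9344, 4471 and 9348 CPM in Combo, 4538, 2834 and 4216 in SHP099, 4700, 5075 and 4492 in SX682 and 3726, 4757 and 5304 in Vehicle T cells (interaction 0.95 ± 0.42; adjusted p = 0.369 by edgeR). The exhaustion list had 0 of 17 called (median 0.03), the regulatory T cell list 0 of 14 (median 0.41) and the naive and memory list 0 of 17 (median -0.22). The cell cycle list had 0 of 33 called, 16 of them above 0.

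In tumour cells 8 of the 53 genes called were under the 5% level, against 790 of the 10993 tested. Lars2 and Foxa2, both below 0, were high under SHP099 alone and close to the SX682 level in the combination. Lars2, the mitochondrial leucyl-tRNA synthetase gene (chromosome 9, 123366927 to 123462666, mm10), had 725, 872 and 865 CPM in Combo, 1241, 1645 and 1360 in SHP099, 768, 859.9 and 912 in SX682 and 549.6, 538 and 644 in Vehicle tumour cells. The SHP099 mice were above all others, and the Combo and SX682 mice overlapped. The product was 2075 CPM against a Combo mean of 820.5 CPM, an interaction of -1.34 ± 0.16 (SE; adjusted p = 0.00322 by edgeR). Foxa2, a lung and gut lineage transcription factor gene (chromosome 2, 148042877 to 148046969, mm10), had 26.2, 26.2 and 19.2 CPM in Combo, 45.6, 62.9 and 56.6 in SHP099, 23.8, 22.9 and 19.8 in SX682 and 19.3, 18.9 and 15.8 in Vehicle tumour cells. SHP099 mice again stood alone and the other 3 treatments were close together (interaction -1.52 ± 0.23, SE; adjusted p = 0.00905 by edgeR). Foxa2 was the 1 called of 17 genes tested in the lung and gut identity list, against 0.482% of all tumour cell genes tested.

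Fdps and Erh were higher under each single drug than under Vehicle. Fdps, the farnesyl diphosphate synthase gene of the cholesterol pathway, had 179.7, 186 and 187 CPM in Combo, 248, 223 and 246 in SHP099, 246, 223 and 241 in SX682 and 169, 163 and 162 in Vehicle tumour cells. The mice of both single drugs lay together above the Combo mice, which in turn were above the Vehicle mice. The interaction was -0.90 ± 0.11 (SE; adjusted p = 0.00345 by edgeR), and the counts are uncertain because Fdps shares exon sequence with the predicted gene Gm43738. Of 25 cholesterol and fatty acid genes tested, Fdps alone was called, and 2 were above 0 (median -0.28). Over all tumour cell genes tested, 0.482% were called and 5336 of 10993 were above 0. Erh, a small nuclear protein gene, had 194, 230.5 and 219 CPM in Combo, 238, 258 and 267 in SHP099, 181, 164 and 159.9 in SX682 and 109.7, 97.9 and 100.1 in Vehicle tumour cells. Combo levels were between those of the SX682 and SHP099 mice, with an interaction of -0.96 ± 0.13 (SE; adjusted p = 0.00587 by edgeR).

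Transcripts of the mitochondrial genome were the list with the most calls in tumour cells. Of 13 tested, 6 were called, all below 0, with a median interaction of -0.53, against 0.255% of all tumour cell genes called below 0. In T cells 1 of 13 was called below 0 (median -0.11), and in neutrophils 2 of 13 were called, both above 0 (median 0.14). Over all genes tested, 0.456% were called below 0 in T cells and 1.47% above 0 in neutrophils. In tumour cells mt-Nd4l, a complex I subunit gene, had 1698, 1452 and 1654 CPM in Combo, 2408, 2257 and 2307 in SHP099, 1539, 1228 and 1340 in SX682 and 913, 1144 and 999 in Vehicle mice. The SHP099 mice were above all others and the Vehicle mice below (interaction -0.96 ± 0.14, SE; adjusted p = 0.00905 by edgeR). Its annotated end overlaps mt-Nd4, so reads of the 2 genes cannot be fully told apart. The call of mt-Nd4, at -0.73, was lost without Combo mouse 2 (-0.68), Combo mouse 3 (-0.74), SHP099 mouse 2 (-0.67) or Vehicle mouse 1 (-0.64). Of 59 nuclear genes of oxidative phosphorylation 0 were called in tumour cells, 29 of them above 0. The mitochondrial share of UMIs is also a measure of cell quality. Its median over all cells ran from 1.59 to 1.99% in Combo, 1.60 to 1.93% in SHP099, 1.89 to 2.15% in SX682 and 1.66 to 1.73% in Vehicle mice, and its part in the result was not tested.

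Genes called above 0 in tumour cells had Combo levels above the product. Fth1, the ferritin heavy chain gene, had 7793, 8251 and 10430 CPM in Combo, 6361, 5469 and 6176 in SHP099, 5080, 6131 and 5366 in SX682 and 7340, 7321 and 6653 in Vehicle tumour cells. The Combo mice were above all other mice, and the mice of the single drugs below the Vehicle mice. Its interaction was 0.92 ± 0.15 (SE; adjusted p = 0.0162 by edgeR), not called without SHP099 mouse 2 (0.87). Btc, a ligand of the EGF receptor, had 119, 107 and 90.8 CPM in Combo, 89.4, 72.8 and 97.9 in SHP099, 147, 116 and 136 in SX682 and 201, 185 and 236 in Vehicle tumour cells. All treated mice were below all Vehicle mice, and the Combo and SHP099 mice overlapped (interaction 0.93 ± 0.19, SE; adjusted p = 0.0444 by edgeR). Btc was called in 3 of the 12 tests without a mouse, those without SHP099 mouse 3, SX682 mouse 1 or Vehicle mouse 2, with values of 0.83 to 1.05 over the 12. Cxcl16, the ligand of CXCR6, was the 1 called of 16 secreted and acute-phase genes, against 0.482% of all tumour cell genes tested. It had 40.4, 47.6 and 52.0 CPM in Combo, 20.6, 15.1 and 21.6 in SHP099, 21.2, 35.6 and 31.3 in SX682 and 27.2, 37.5 and 43.0 in Vehicle tumour cells (interaction 1.63 ± 0.33, SE; adjusted p = 0.0436 by edgeR), at 4.55% of its level in cluster 17. It was called in 2 of the 12 tests, those without SX682 mouse 2 or Vehicle mouse 1, with values of 1.39 to 1.83.

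**Figure D4:**
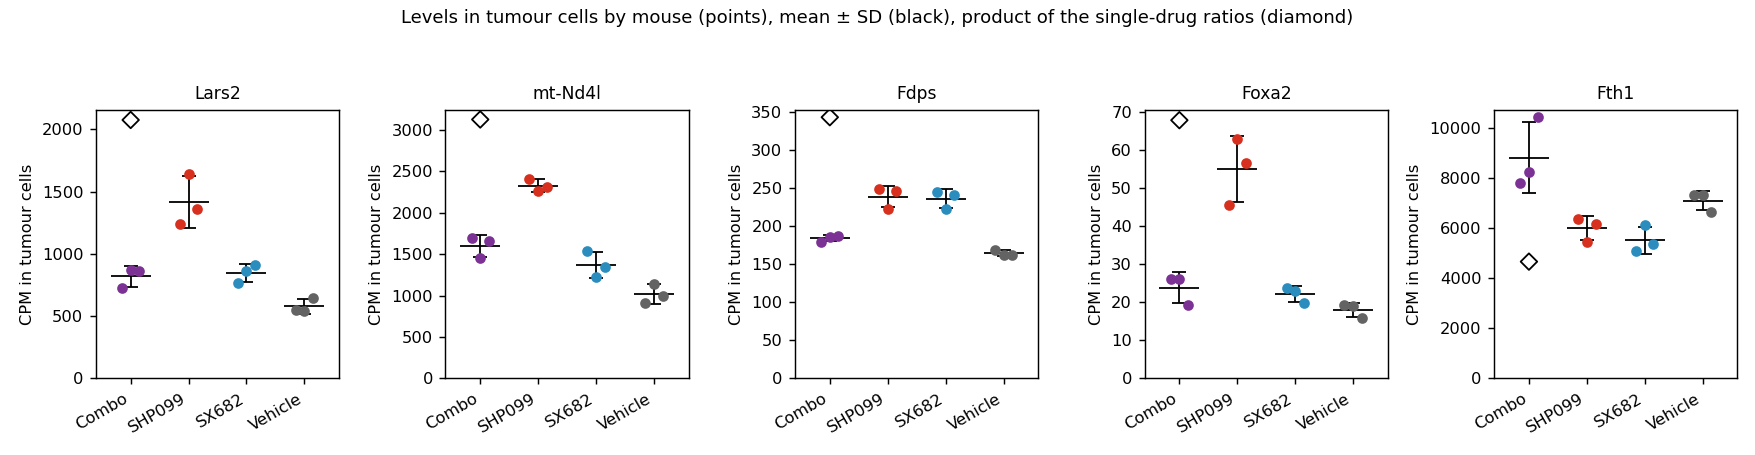
Levels in tumour cells by mouse (CPM, y axis) of Lars2, mt-Nd4l, Fdps, Foxa2 and Fth1; points are mice, black bars the mean ± SD of 3 mice, and the diamond the product of the single-drug ratios. The Combo means lie below the product for the first 4 genes and above it for Fth1, at 8824 against 4668 CPM.

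Cxcl5, a CXCR2 ligand, lay close to the product in tumour cells. It had 266, 405 and 389 CPM in Combo, 187, 303 and 141 in SHP099, 124, 138 and 53.9 in SX682 and 54.8, 55.1 and 60.5 in Vehicle tumour cells. The Combo mean of 353 CPM compared with a product of 391 CPM, and the interaction of -0.19 ± 0.51 was not called (adjusted p = 0.911 by edgeR), with an error that leaves room for departures in either direction. None of the 10 genes of the CXCR2 list, 22 ERK target genes or 24 SHP2 pathway genes tested in tumour cells was called. Their medians were 0.91, 0.06 and 0.14, and 7 of the 10 CXCR2 genes were under the 5% level. Only 0.482% of all tumour cell genes tested were called, so these short lists cannot show an absence of departure. Neutrophil markers summed in tumour cells to 4017, 3027 and 6284 CPM in Combo, 2825, 1132 and 1690 in SHP099, 2141, 3285 and 1105 in SX682 and 4005, 2618 and 2550 in Vehicle mice. Macrophage markers there summed to 94.1, 130.3 and 208 CPM in Combo, 27.7, 21.4 and 19.1 in SHP099, 59.4, 270.1 and 288 in SX682 and 360.2, 378 and 409 in Vehicle mice, with 0 of the 7 at 0. Every SHP099 mouse was below the other mice and every Vehicle mouse above. The part of such RNA in the tumour cell calls was not tested.

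The 2 tumour clusters did not hold the same part of these cells in every treatment. Cluster 21 held 128 of 269, 159 of 419 and 144 of 238 tumour cells in Combo, 31 of 78, 21 of 84 and 15 of 57 in SHP099, 170 of 391, 102 of 197 and 83 of 134 in SX682 and 596 of 1123, 243 of 523 and 379 of 580 in Vehicle mice. The depth of tumour cells differed as well, with medians of 7627 to 8026 UMIs per cell in Combo, 12854.5 to 16020 in SHP099, 9327 to 13876 in SX682 and 9998 to 10517 in Vehicle mice. Combo mice were the lowest, and SHP099 mice overlapped SX682 mice. The part of composition and depth in the gene results was not tested, beyond the clusters taken apart. Cluster 23 alone gave 114 called genes and cluster 21 alone 6. Foxa2 stood at -1.36 in cluster 23 and -0.95 in cluster 21, Lars2 at -1.68 and -1.17, mt-Nd4l at -1.01 and -0.99, and Fdps at -0.81 and -0.29. Each was called in cluster 23 and none in cluster 21. The number of tumour genes called also rested on single mice, with 24 called without Combo mouse 1, 14 without Combo mouse 2, 8 without Combo mouse 3, 10 without SHP099 mouse 2, 17 without Vehicle mouse 1 and 17 without Vehicle mouse 3. Lars2, Fdps, Erh, mt-Nd4l and Foxa2 were called without each mouse in turn.

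Hspa1b, an inducible chaperone of the HSP70 family, was called below 0 in all 3 classes. Heat shock genes are induced by heat shock factor 1, which binds inverted repeats of GAA in their promoters. The RefSeq promoters (GRCm38.p6, from 250 bases before to 50 after the start) of Hspa1b and Hspb1 are shown because they carry this repeat. Hspb1, the small heat shock protein gene, was above 0 in both immune classes, at 2.94 in neutrophils and 2.37 in T cells. It was called in neutrophils alone. Capitals mark GAANNTTC, which reads the same on both strands. The Hspa1b window is chr17:34959189-34959488, minus strand, with 1 match, and the Hspb1 window is chr5:135887669-135887968, plus strand, with 2 matches.
Hspa1b: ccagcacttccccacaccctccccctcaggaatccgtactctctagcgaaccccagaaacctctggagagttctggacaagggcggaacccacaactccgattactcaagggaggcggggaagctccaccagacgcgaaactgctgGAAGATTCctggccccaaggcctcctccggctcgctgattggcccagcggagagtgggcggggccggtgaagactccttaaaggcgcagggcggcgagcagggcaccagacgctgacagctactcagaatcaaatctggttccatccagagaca
Hspb1: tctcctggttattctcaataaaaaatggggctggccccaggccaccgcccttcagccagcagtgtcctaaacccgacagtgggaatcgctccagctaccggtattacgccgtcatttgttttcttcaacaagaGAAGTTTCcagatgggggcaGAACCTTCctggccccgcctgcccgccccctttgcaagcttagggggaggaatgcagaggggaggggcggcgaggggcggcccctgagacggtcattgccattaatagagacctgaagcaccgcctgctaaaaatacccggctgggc
The motif was present in 10 of 18 promoters of the heat shock list (55.6%) and in 2582 of 32851 RefSeq promoters (7.86%). Those 18 promoters belong to the 12 of the 15 list genes that had a promoter entry, with or without the motif. A match describes the letters alone.

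In neutrophils Hspa1b had 7.68, 11.0 and 8.78 CPM in Combo, 18.8, 28.6 and 35.6 in SHP099, 14.6, 18.5 and 30.5 in SX682 and 10.3, 19.3 and 6.07 in Vehicle mice. The Combo mice were below all mice given 1 drug, and overlapped the Vehicle mice. These neutrophil levels rest on few UMIs, as the class sums were 339548 UMIs in Vehicle mouse 3 and 286221 in SX682 mouse 3. In T cells Hspa1b had 35.4, 21.9 and 22.5 CPM in Combo, 78.9, 55.4 and 64.1 in SHP099, 46.1, 52.7 and 46.4 in SX682 and 33.9, 65.6 and 33.5 in Vehicle mice. In tumour cells it had 24.3, 18.5 and 16.8 CPM in Combo, 40.4, 30.8 and 36.8 in SHP099, 24.3, 29.9 and 24.2 in SX682 and 18.3, 18.9 and 19.6 in Vehicle mice. In T cells and tumour cells alike the Combo mice were below all SHP099 mice. Interactions were -2.12 ± 0.50 in neutrophils, -1.41 ± 0.32 in T cells and -1.32 ± 0.23 in tumour cells (SE; adjusted p = 0.0192, 0.0167 and 0.0207 by edgeR). The 3 classes came from the same mice and pools, so their shared direction is not 3 independent results. The neutrophil call was lost without SX682 mouse 2 (-2.13) or Vehicle mouse 1 (-1.89). That in T cells was lost without Combo mouse 2 (-1.26), Vehicle mouse 1 (-1.19) or Vehicle mouse 3 (-1.31), and that in tumour cells without Combo mouse 2 (-1.26), Combo mouse 3 (-1.23) or Vehicle mouse 1 (-1.27). Hspa1a, its near-identical neighbour, can share its reads, so the level of each is uncertain. Hspa1a stood at -2.39 in neutrophils and was not called. The tumour cell chaperone Hsp90aa1 was called at -0.56 (adjusted p = 0.0488) but in only 1 of the 12 tests without a mouse, with values of -0.62 to -0.45.

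Over the heat shock list, 1 of 14 genes tested had an interaction above 0 in neutrophils, 1 of 15 in T cells and 0 of 15 in tumour cells. Over all genes tested these counts were 3759 of 7477, 4199 of 8330 and 5336 of 10993. The medians of the list were -0.68, -0.58 and -0.48, against medians of 0.00, 0.00 and -0.01 over all genes tested. Members called below 0 numbered 1 in neutrophils, 1 in T cells and 2 in tumour cells, against 0.281%, 0.456% and 0.255% of all genes tested. The member above 0 in both immune classes was Hspb1, at 0.89% of its level in cluster 20 in neutrophils.

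**Figure D5:**
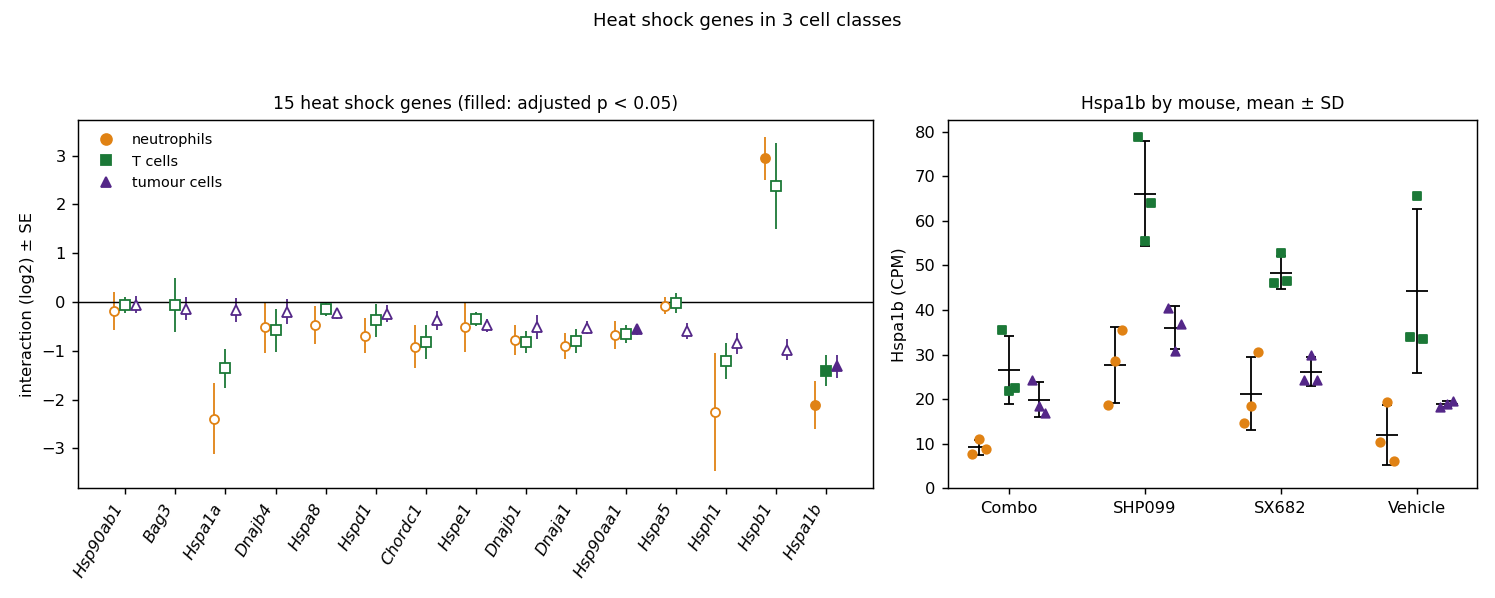
Left, interaction (log2, y axis) ± SE of 15 heat shock genes in neutrophils, T cells and tumour cells, filled where called; right, Hspa1b by mouse (CPM, y axis) in the 3 classes with the mean ± SD of 3 mice. Nearly all values on the left lie at or below 0 apart from Hspb1 in the immune classes, and on the right the Combo mice lie below the SHP099 mice in each class.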

How the data were processed

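The authors deposited raw counts of UMIs as 1 matrix of genes by cells, which was used with the authors' tables of cell metadata, clusters, neutrophils and T cells. Per the labels' protocols the libraries came from the 10x V(D)J kit. Per the submitters' processing notes, the tools used over the series included Cell Ranger and the build was mm10. No deposited cell had fewer than 500 UMIs or more than 20% of them from mitochondrial genes; 1 cell stood in both the neutrophil and the T cell table. Nothing in the labels describes doublet removal and no doublet caller was applied here. UMIs were summed per mouse and class, over 286221 to 1642725 UMIs per mouse in neutrophils, 418013 to 2025807 in T cells and 1151576 to 15669872 in tumour cells. Sums were fitted with edgeR 4.0.16 (glmQLFit and glmQLFTest, robust, TMM scaling, filterByExpr) in R 4.3.3, as 4 treatment means, and CPM values carry the same scaling. Shares used the mouse total as library size. The exact permutation test used logit shares with 0.5 cells added. Scripts were tested on simulated data. DESeq2 1.42.0 and limma 3.58.1 gave alternatives, and limma the tests between classes. Gene positions came from GENCODE. The 5% level compared the CPM of a class with that of the cluster where a gene was highest among the clusters holding mostly other cells. Named genes were up to 10 called genes each way by size with a mean log2 CPM of at least 5, up to 4 per gene list by smallest p, and the drug targets and CXCR2 ligands. The members, lists and tests were chosen with earlier results of these data known.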

Additional observations from a re-analysis of the deposited data

Results flagged for a closer look

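Hspb1, the small heat shock protein gene, had interactions that differed between cell classes. On the log2 scale, the interaction in tumour cells minus that in neutrophils was -3.64 (SE 0.46; adjusted p = 0.0435 by limma over 7150 genes), the 1 gene of that comparison called, with 795 at an unadjusted p under 0.05. The interaction was -0.98 in tumour cells (adjusted p = 0.067 by edgeR) and 2.94 in neutrophils (adjusted p = 0.000175 by edgeR). In T cells it was 2.37 (adjusted p = 0.208 by edgeR). Hspb1 in neutrophils was at 0.89% of its level in the fibroblast-like cluster 20, and the part of RNA from other cells in the difference was not tested. Between tumour cells and T cells 0 of 7818 genes were called by limma, with 798 at an unadjusted p under 0.05, and between T cells and neutrophils 0 of 6504, with 421; no other tool was run on these differences.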

How the results depend on the processing

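The tumour cell share kept its direction and its call under every alternative run, between 2.59 and 3.56 on the log2 scale. In percentage points its direction could not have differed. The neutrophil share (-0.78 to -0.12 without each mouse in turn) and the T cell share (-1.74 to -0.75) were not called under any alternative. Genes called in neutrophils numbered 131, against 243 with no filter on low counts, 79 with a mean of at least 20 UMIs, 14 with equal cell numbers, 39 without genes under 5%, and 68 to 133 without each mouse in turn (68 without Vehicle mouse 1). In T cells 102 became 251, 83, 27, 54 and 58 to 122 (65 without SHP099 mouse 3, 61 without SX682 mouse 3, 58 without Vehicle mouse 3), and 15 in the CD8 clusters alone. In tumour cells 53 became 161, 55, 2, 71 and 8 to 68, with 6 in cluster 21 and 114 in cluster 23 alone; the median interaction over all genes moved to 0.14 with no filter. DESeq2 called 112 (105 above and 7 below 0), 74 (54 and 20) and 202 genes (132 and 70) in neutrophils, T cells and tumour cells. All genes called kept their sign under every one of these alternatives in which they were tested, apart from 1 of 49 in cluster 21 alone. Equal cell numbers also cut the genes tested, to 3524, 5426 and 8156. For other changes of call the cause was not tested.

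Clusters called were 3, 1 to 5 without each mouse in turn, and 0 with clusters 21 and 23 left out of the total, which removes 2 of the 3. T cell clusters called were 1, 0 on the percent scale and with TMM scaling of cell counts, and 0 to 1 without each mouse in turn. The interactions of 3 genes that were not called changed sign. Cxcr2 in neutrophils was 0.41 with equal cell numbers and -0.23 to 0.039 without each mouse in turn. Ptpn11 with equal cell numbers was 0.47 in neutrophils and -0.47 in T cells, against -0.33 and 0.37 with all cells. Cxcl5 in tumour cells was 0.043 with equal cell numbers, 1.57 in cluster 21 alone and -0.47 to 0.20 without each mouse in turn.

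Same-numbered mice had correlations of their deviations from the treatment means of -0.16 to 0.31 over 18 pairs per class. Medians were -0.02 in neutrophils, 0.03 in T cells and 0.00 in tumour cells. With 3 mice per treatment, these values cannot exclude a litter or batch shared by number. With the replicate block, 130 neutrophil, 170 T cell and 54 tumour genes, 5 clusters, 0 neutrophil clusters and 0 T cell clusters were called, and the tumour, neutrophil and T cell shares were 3.10, -0.31 and -1.32. Cell number limits the tumour comparison, with 57 to 84 tumour cells in each SHP099 mouse, and that of the fibroblast-like cluster, at 4 to 7 cells in the same mice.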

Other observations

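A cluster holding gamma delta T cells, which make IL-17 early in lung inflammation, lay below the product of the single drugs without passing the test. Cluster 9 of all cells, led by Tcrg-C1, Trdv4, Trdc and Il17a, held 2.22, 1.57 and 1.53% of cells in Combo, 2.32, 4.41 and 2.31% in SHP099, 1.56, 1.06 and 2.62% in SX682 and 0.813, 1.31 and 1.03% in Vehicle mice. Il1rl1 and Calca were also among its leading genes, so its cells need not all be gamma delta T cells. The SHP099 mice were above all Vehicle mice and the Combo mice overlapped the SX682 mice. The interaction of cluster 9 was -1.50 ± 0.61 (SE; adjusted p = 0.143 by edgeR; exact permutation p = 0.0714). Trdc, the constant segment gene of the delta chain, had 26.6, 44.4 and 43.7 CPM in Combo, 59.8, 93.8 and 61.5 in SHP099, 46.1, 58.1 and 46.9 in SX682 and 41.1, 50.5 and 52.6 in Vehicle T cells, an interaction of -1.04 ± 0.30 (adjusted p = 0.0694 by edgeR). Every Combo mouse was below every SHP099 mouse. Of 12 genes tested in the gamma delta and IL-17 list 0 were called, with a median of -0.54 and 4 above 0. Over all T cell genes tested 1.22% were called and the median was 0.00, with 4199 of 8330 above 0. Cluster T8, the 418 cells led by Trdv4 within the T cell table, lay near the product. As a share of T cells it stood at -0.17 ± 0.52 (adjusted p = 0.847 by edgeR). Cluster 2, led by Dapl1, Lef1 and Tcf7, genes of naive T cells, held 6.06, 6.71 and 6.20% of cells in Combo, 11.98, 8.33 and 12.1% in SHP099, 5.60, 3.17 and 7.98% in SX682 and 4.49, 4.12 and 1.67% in Vehicle mice. The SHP099 mice were above all others, and the interaction was -1.47 ± 0.61 (adjusted p = 0.143 by edgeR; exact permutation p = 0.119).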
